A study of Rattus norvegicus with 12 samples.

Results

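Cytochrome P450 (Cyp) and flavin monooxygenase (Fmo) genes were followed in RNA from whole rat lung. The members were the genes of the deposited count table whose symbol begins with Cyp or Fmo followed by a digit and that had at least 10 counts in at least 4 of the 12 libraries. Of the 79 genes with such a symbol 42 met that minimum, and 40 of these were among the 15257 genes tested of 32883 in the table. The 12 libraries formed 3 groups of 4, all labelled as wild-type rats with a time of 25 days. MCT-Fer-1 rats had received monocrotaline and then ferrostatin-1, and MCT-vehicle rats had received monocrotaline and then vehicle, each for 10 days. Control rats carry no treatment other than the word control in the labels, so monocrotaline and vehicle dosing cannot be told apart between MCT-vehicle and Control lungs. The labels used here do not give strain, sex, age or dose, and leave unsaid whether the libraries came from separate rats. The p-values therefore measure the spread between these libraries, which may be technical.

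Cytochrome P450 enzymes hold a haem group and insert an atom of oxygen into their substrate, with electrons from NADPH passed on by P450 oxidoreductase in the endoplasmic reticulum or by ferredoxin in mitochondria. Flavin monooxygenases carry a flavin instead and oxidise nitrogen and sulphur atoms of foreign compounds without a partner protein. In lung, P450 genes of this kind are known from club cells, alveolar epithelium, endothelium and macrophages. Monocrotaline is a plant alkaloid that liver P450 enzymes turn into a reactive pyrrole, which injures the vessels of the lung and is widely used to model pulmonary hypertension in rats. Ferrostatin-1 is a radical-trapping inhibitor of lipid peroxidation and of ferroptosis, an iron-dependent form of cell death.

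Library totals ran from 11601929 to 70627239 counts in MCT-Fer-1 lungs, from 13654695 to 24016262 in MCT-vehicle lungs and from 16640022 to 18229992 in Control lungs. A level of 3 counts, taken as the floor, equals 0.0420 to 0.259 CPM (counts scaled to a common library size, with libraries normalised by trimmed mean of M-values), which covers counting error only. The tissue carried the markers of lung: 9 alveolar type 2 genes summed to 20978 to 37220 CPM in MCT-Fer-1 lungs, 22561 to 35942 CPM in MCT-vehicle lungs and 34750 to 37922 CPM in Control lungs. Of 8 macrophage markers 6 were higher in MCT-vehicle than in Control lungs (edgeR adjusted p below 0.05), with sums of 22551 to 29381 CPM in MCT-Fer-1 lungs, 22026 to 35690 CPM in MCT-vehicle lungs and 21893 to 24322 CPM in Control lungs. Of 7 fibroblast markers 3 were higher (Col1a1, Col3a1 and Lum), with sums of 2855 to 3913 CPM in MCT-Fer-1 lungs, 3937 to 5553 CPM in MCT-vehicle lungs and 2239 to 2894 CPM in Control lungs. Of 8 endothelial markers tested 3 were lower, with sums of 2900 to 4180 CPM in MCT-Fer-1 lungs, 2616 to 3299 CPM in MCT-vehicle lungs and 3893 to 4254 CPM in Control lungs. Marco, one of the macrophage markers, had no count in any Control library and averaged 0.605 ± 0.263 CPM in MCT-Fer-1 and 0.487 ± 0.498 CPM in MCT-vehicle lungs. In RNA from whole tissue, fewer cells of a type and less RNA per cell cannot be told apart. Libraries MCT-vehicle 2 and Control 4 stood apart by heart-muscle transcripts, with 425 and 271 CPM summed over 10 markers against 17.3 to 82.3 CPM in the other 10 libraries.

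All 42 members together took 0.174 to 0.234% of counts in MCT-Fer-1 lungs, 0.156 to 0.228% in MCT-vehicle lungs and 0.237 to 0.294% in Control lungs. Their summed level was 2069 ± 255 CPM in MCT-Fer-1 lungs, 1971 ± 302 CPM in MCT-vehicle lungs and 2577 ± 223 CPM in Control lungs (SD, n = 4 each). Both monocrotaline groups lay below every Control library in this share, and they overlapped each other. Counts of Cyp2b1 made up 26.2% of all member counts over the 12 libraries, counts of Cyp4b1 18.7% and counts of Fmo2 14.3%. These are shares of counts and not levels per transcript length. At least 10 counts were reached in all 12 libraries by 36 members. Cyp26a1 and Cyp2d5 lay just inside the minimum, each with 10 counts in 4 libraries, and were too low to be tested. Just outside it were Cyp27b1, Cyp2g1 and Cyp11a1, with 10 counts in 2 libraries each, and 14 of the 37 genes left out had no count in any library.

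P450 and FMO genes differed in both directions after monocrotaline and vehicle. Between MCT-vehicle and Control lungs 9 of the 40 tested members passed an adjusted p of 0.05 (edgeR quasi-likelihood test, Benjamini-Hochberg over all genes tested), which is 22.5% against 18.6% of all genes tested. Cyp2d1, Cyp7b1 and Cyp1b1 were higher, and 10.3% of all genes were higher. Fmo1, Fmo2, Cyp27a1, Cyp2d4, Cyp3a9 and Cyp2c23 were lower, where 8.28% of all genes were. The median log2 fold change was -0.15 over the tested members and 0.02 over all genes. Groups did not overlap for 12 members, 6 higher and 6 lower, or 30% of those tested against 21.5% of all genes. At an unadjusted p of 0.05, 16 members passed, or 40% against 32.1% of all genes. Nothing particular to the members is read from these shares. Without the 2 libraries rich in heart-muscle transcripts 5 members were called in this comparison (Fmo1, Fmo2 and Fmo6 lower, Cyp7b1 and Cyp2d1 higher), against 10.9% of all genes.

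**Figure D1:**
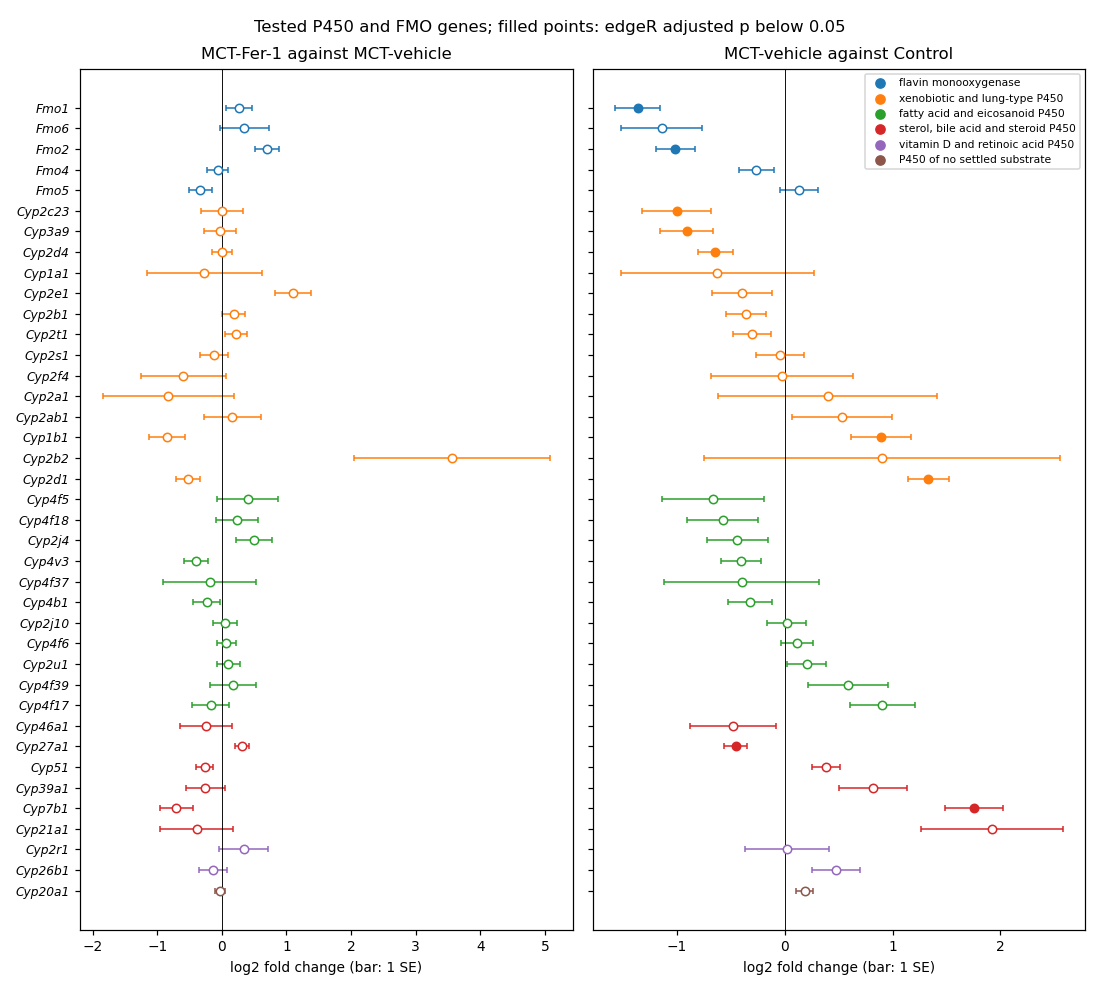
Log2 fold changes of 39 of the 40 tested members (x axis, log2 units; bars are 1 SE) in MCT-Fer-1 against MCT-vehicle lungs on the left and MCT-vehicle against Control lungs on the right, coloured by role, with filled points where the edgeR adjusted p was below 0.05. The right panel holds 9 filled points, 3 to the right of 0 and 6 to the left, and the left panel holds none.

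Of the 5 flavin monooxygenases reported, 2 were lower and none higher in MCT-vehicle against Control lungs, with 4 of the 5 below 0 on the log2 scale and a median log2 fold change of -1.01. Of all genes tested 8.28% were lower, and DESeq2 called 3 of these genes lower (Fmo1, Fmo2 and Fmo6), with 20.5% of all genes called in either direction. Fmo1 (ENSRNOG00000034191), the main drug-oxidising FMO of rat liver and kidney, had 135, 69.04, 114 and 87.8 CPM in MCT-Fer-1 lungs, 95.4, 94.8, 80.6 and 64.7 CPM in MCT-vehicle lungs and 175, 207, 207 and 274 CPM in Control lungs. All 8 libraries from monocrotaline-treated rats lay below all 4 Control libraries, and the 2 treated groups overlapped. Its log2 fold change was -1.36 ± 0.21 (SE) in MCT-vehicle against Control lungs (edgeR adjusted p = 0.00104) and -1.09 ± 0.21 in MCT-Fer-1 against Control lungs (adjusted p = 0.00569). Ferrostatin-1 against vehicle gave 0.27 ± 0.20 (adjusted p = 0.632).

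Fmo2 (ENSRNOG00000003510), the form typical of mammalian lung, had 383, 231, 246 and 388 CPM in MCT-Fer-1 lungs, 161, 235, 173 and 199 CPM in MCT-vehicle lungs and 436, 335, 409.5 and 369 CPM in Control lungs. In many laboratory rat strains this gene carries a premature stop codon, and the strain used here is not in the labels. Every MCT-vehicle library lay below every Control library, with a difference of -1.01 ± 0.18 on the log2 scale (edgeR adjusted p = 0.00256). The MCT-Fer-1 libraries split, with replicates 1 and 4 inside the Control range and replicates 2 and 3 near the highest MCT-vehicle library. MCT-Fer-1 exceeded MCT-vehicle by 0.70 ± 0.18 on the log2 scale, which did not pass the edgeR test (adjusted p = 0.20003, unadjusted p = 0.00203). MCT-Fer-1 against Control gave -0.31 ± 0.18 (adjusted p = 0.3101).

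The other 3 flavin monooxygenases did not pass the edgeR test in any comparison with all libraries. Fmo4 averaged 8.31 ± 1.98 CPM in MCT-Fer-1 lungs, 8.62 ± 0.771 CPM in MCT-vehicle lungs and 10.3 ± 1.07 CPM in Control lungs (SD, n = 4 each). Without MCT-Fer-1 1 it passed the test in MCT-Fer-1 against Control lungs, at -0.49 (adjusted p = 0.0371). Fmo6, whose human counterpart gives no working enzyme, had 1.12, 1.29, 0.567 and 0.881 CPM in MCT-Fer-1 lungs, 0.427, 1.18, 0.746 and 0.6303 CPM in MCT-vehicle lungs and 2.199, 1.16, 1.87 and 1.36 CPM in Control lungs. Its difference between MCT-vehicle and Control lungs was -1.14 ± 0.38 (adjusted p = 0.0518), and without MCT-vehicle 2, the highest library of its group, it was -1.47 (adjusted p = 0.0256). It passed in 4 of 21 alternatives, the others being DESeq2, thinning to the smallest library and leaving out both libraries rich in heart-muscle transcripts. Fmo5, an FMO of Baeyer-Villiger type that oxidises ketones, averaged 25.4 ± 6.38 CPM in MCT-Fer-1 lungs, 32.01 ± 2.37 CPM in MCT-vehicle lungs and 29.1 ± 5.65 CPM in Control lungs, with 0.14 ± 0.18 on the log2 scale in MCT-vehicle against Control lungs (adjusted p = 0.634). In the RefSeq gene order Fmo4, Fmo1, Fmo2 and Fmo6 follow each other without another protein-coding gene between them, and Fmo5 lies elsewhere. The sum of endothelial markers was also lower in MCT-vehicle than in Control lungs in every library, and its part in the FMO differences was not tested. In MCT-Fer-1 against Control lungs all 5 genes lay below 0 on the log2 scale, with a median of -0.32, and Fmo1 alone passed.

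**Figure D2:**
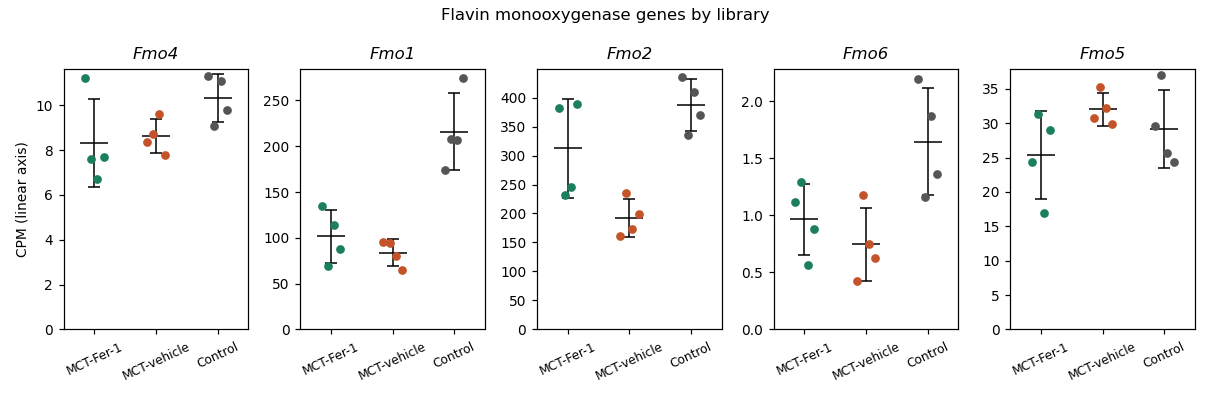
Levels of 5 flavin monooxygenase genes (y axis, CPM, linear from 0), 1 point per library, with the mean and SD of 4 libraries as lines, in the order of the genes along the chromosome and Fmo5 last. For Fmo1 and Fmo2 every MCT-vehicle point lies below every Control point, and the Fmo2 points of MCT-Fer-1 lungs form a pair at 231 and 246 CPM and a pair at 383 and 388 CPM.

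Among the xenobiotic-metabolising P450 genes 2 were higher and 3 lower of 14 tested in MCT-vehicle against Control lungs by edgeR, DESeq2 and limma's voom alike. By edgeR this was 35.7% of the 14 against 18.6% of all genes (10.3% higher and 8.28% lower), with a median log2 fold change of -0.17. DESeq2 and voom, run on the same libraries, called 20.5% and 18.7% of all genes in either direction. Cyp2d1 (ENSRNOG00000029179), the rat debrisoquine hydroxylase, had 2.499, 2.304, 2.87 and 2.64 CPM in MCT-Fer-1 lungs, 3.38, 3.54, 4.55 and 3.47 CPM in MCT-vehicle lungs and 1.37, 1.72, 1.51 and 1.302 CPM in Control lungs. The 3 groups did not overlap at any point, with MCT-vehicle highest and MCT-Fer-1 in between. The log2 fold change was 1.33 ± 0.19 in MCT-vehicle against Control lungs (edgeR adjusted p = 0.000628) and 0.81 ± 0.19 in MCT-Fer-1 against Control lungs (adjusted p = 0.0183). MCT-Fer-1 against MCT-vehicle gave -0.52 ± 0.18 (unadjusted p = 0.0138, adjusted p = 0.29998). The call against Control in MCT-Fer-1 lungs was lost in 4 of 21 alternatives (edgeR adjusted p up to 0.0706). These were leaving out MCT-Fer-1 3 or Control 4 (adjusted p = 0.0572 to 0.0602), leaving out both libraries rich in heart-muscle transcripts, and thinning to the smallest library. Cyp2d1 is a low gene here, with 22 to 189 counts per library.

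Cyp2d1 has a close copy in Cyp2d5, which had 0.259, 0.553, 0.265 and 0.224 CPM in MCT-Fer-1 lungs, 0.128, 0.499, 0.8204 and 0.2101 CPM in MCT-vehicle lungs and 0.05497, 0.166, 0.181 and 0.118 CPM in Control lungs. Reads of the 2 genes may have been split between them, so which of the pair the counts belong to is uncertain. The 250 bases before their starts (RefSeq, GRCr8, both on the minus strand, Cyp2d1 at chr7:115793431-115793680 and Cyp2d5 at chr7:115784488-115784737) are shown 5′ to 3′ because they make the likeness upstream of the genes visible: of 215 aligned bases 201 were identical, or 93.5%, with 14 differences. Likeness of the transcripts, from which the reads come, was not computed.
Cyp2d1: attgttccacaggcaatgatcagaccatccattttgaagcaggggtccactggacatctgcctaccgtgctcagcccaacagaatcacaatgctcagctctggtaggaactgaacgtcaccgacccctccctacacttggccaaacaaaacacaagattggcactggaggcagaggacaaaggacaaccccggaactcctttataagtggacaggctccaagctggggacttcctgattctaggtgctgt
Cyp2d5: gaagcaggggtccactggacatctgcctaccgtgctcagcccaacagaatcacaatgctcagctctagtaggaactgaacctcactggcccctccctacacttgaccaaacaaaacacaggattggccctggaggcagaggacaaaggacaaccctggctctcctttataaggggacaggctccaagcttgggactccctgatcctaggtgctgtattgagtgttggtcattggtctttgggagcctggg
Neither stretch holds GCGTG on either strand, the core bound by the aryl hydrocarbon receptor with its partner Arnt, so no letters are in capitals.

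Cyp1b1 (ENSRNOG00000040287), which hydroxylates oestradiol and polycyclic hydrocarbons and is a target of the aryl hydrocarbon receptor, had 13.2, 12.5, 16.5 and 11.7 CPM in MCT-Fer-1 lungs, 23.5, 41.1, 16.4 and 15.5 CPM in MCT-vehicle lungs and 15.8, 10.3, 11.3 and 14.8 CPM in Control lungs. MCT-vehicle 1 and 2 lay above every library of the other groups, while MCT-vehicle 3 and 4 lay within the range of the MCT-Fer-1 and Control libraries together. Its log2 difference was 0.89 ± 0.28 in MCT-vehicle against Control lungs (edgeR adjusted p = 0.0434). This call was lost in 14 of 21 alternative analyses, among them leaving out any 1 of 9 libraries (each MCT-Fer-1 library, MCT-vehicle 1 or 2, and Control 2, 3 or 4), with adjusted p of 0.0510 to 0.115 without them. MCT-Fer-1 against MCT-vehicle gave -0.84 ± 0.28 (unadjusted p = 0.00994, adjusted p = 0.279), and MCT-Fer-1 against Control gave 0.046 ± 0.28 (adjusted p = 0.945). The 250 bases before its start (RefSeq, GRCr8, chr6:21094315-21094564, plus strand) are shown because they hold 2 copies of the receptor's core, 1 on each strand, in capitals.
Cyp1b1: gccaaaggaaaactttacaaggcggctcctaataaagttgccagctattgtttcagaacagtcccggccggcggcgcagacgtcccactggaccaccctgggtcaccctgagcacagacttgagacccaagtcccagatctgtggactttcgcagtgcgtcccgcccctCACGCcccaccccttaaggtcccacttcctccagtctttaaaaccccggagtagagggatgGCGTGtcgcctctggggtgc
GCGTG was found on either strand in 15 of the 35 members with a promoter in the RefSeq table, or 42.9%, and in 25.9% of all 33469 promoters of the same length. The first share is per gene, counting a member if any of its promoters held the core, and the second is per promoter. Of the 35 members 32 had 1 promoter, and Cyp1a1 is not among the 35. Ahr itself averaged 121 ± 31.4 CPM in MCT-Fer-1 lungs, 118 ± 19.04 CPM in MCT-vehicle lungs and 115 ± 12.8 CPM in Control lungs, with a log2 fold change of 0.033 ± 0.18 in MCT-vehicle against Control lungs (adjusted p = 0.921).

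The 3 lower xenobiotic P450 genes had nearly the same level in both monocrotaline groups. Cyp2d4 (ENSRNOG00000032261), a form known from rat brain, had 8.36, 6.77, 9.23 and 9.16 CPM in MCT-Fer-1 lungs, 7.61, 8.35, 9.84 and 7.77 CPM in MCT-vehicle lungs and 12.9, 10.7, 11.7 and 16.9 CPM in Control lungs. Cyp3a9 (ENSRNOG00000046643), a steroid-hydroxylating member of the family that oxidises many drugs, had 3.62, 4.79, 3.67 and 5.496 CPM in MCT-Fer-1 lungs, 4.79, 4.94, 2.46 and 5.73 CPM in MCT-vehicle lungs and 7.97, 7.14, 7.89 and 10.8 CPM in Control lungs. Cyp2c23 (ENSRNOG00000013291), the arachidonic acid epoxygenase of rat kidney, had 1.81, 5.35, 6.16 and 7.03 CPM in MCT-Fer-1 lungs, 7.78, 4.13, 4.62 and 4.25 CPM in MCT-vehicle lungs and 9.62, 11.2, 9.88 and 11.01 CPM in Control lungs. For each of these 3 genes all 8 monocrotaline libraries lay below all 4 Control libraries.

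In MCT-vehicle against Control lungs the log2 fold change was -0.64 ± 0.16 for Cyp2d4 (edgeR adjusted p = 0.0151), -0.91 ± 0.24 for Cyp3a9 (adjusted p = 0.0213) and -0.999 ± 0.32 for Cyp2c23 (adjusted p = 0.0472). MCT-Fer-1 against Control gave -0.64 ± 0.16 for Cyp2d4 (adjusted p = 0.02401), -0.93 ± 0.24 for Cyp3a9 (adjusted p = 0.0281) and -1.001 ± 0.32 for Cyp2c23 (adjusted p = 0.0647). Both comparisons share the Control libraries. Between MCT-Fer-1 and MCT-vehicle lungs the differences were 0.0042 ± 0.16, -0.025 ± 0.24 and -0.0022 ± 0.32 for Cyp2d4, Cyp3a9 and Cyp2c23, none past the test (adjusted p = 0.996, 0.979 and 0.999). The Cyp2c23 call in MCT-vehicle lungs was lost in 13 of 21 alternatives, among them leaving out any 1 of 9 libraries (MCT-Fer-1 2 or 3, MCT-vehicle 2, 3 or 4, and each Control library; adjusted p = 0.0590 to 0.107). In MCT-Fer-1 against Control lungs Cyp2c23 passed in 4 of 21 alternatives, by DESeq2 (adjusted p = 0.0137), by voom, and without MCT-Fer-1 1 or without MCT-vehicle 1 (adjusted p = 0.0469 to 0.0490). Without Control 4, the highest Control library for both genes, Cyp3a9 lost its call in MCT-vehicle lungs (-0.77, adjusted p = 0.0703), and Cyp2d4 lost its call in MCT-Fer-1 lungs, as it did without MCT-Fer-1 2 (adjusted p = 0.0718 to 0.0756). The Cyp3a9 call in MCT-Fer-1 lungs was lost without any 1 of MCT-Fer-1 1, 2 or 3 or Control 1, 3 or 4 (adjusted p = 0.0503 to 0.0915). Without both libraries rich in heart-muscle transcripts Cyp2d4 and Cyp3a9 lost their calls against Control in each monocrotaline group.

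**Figure D3:**
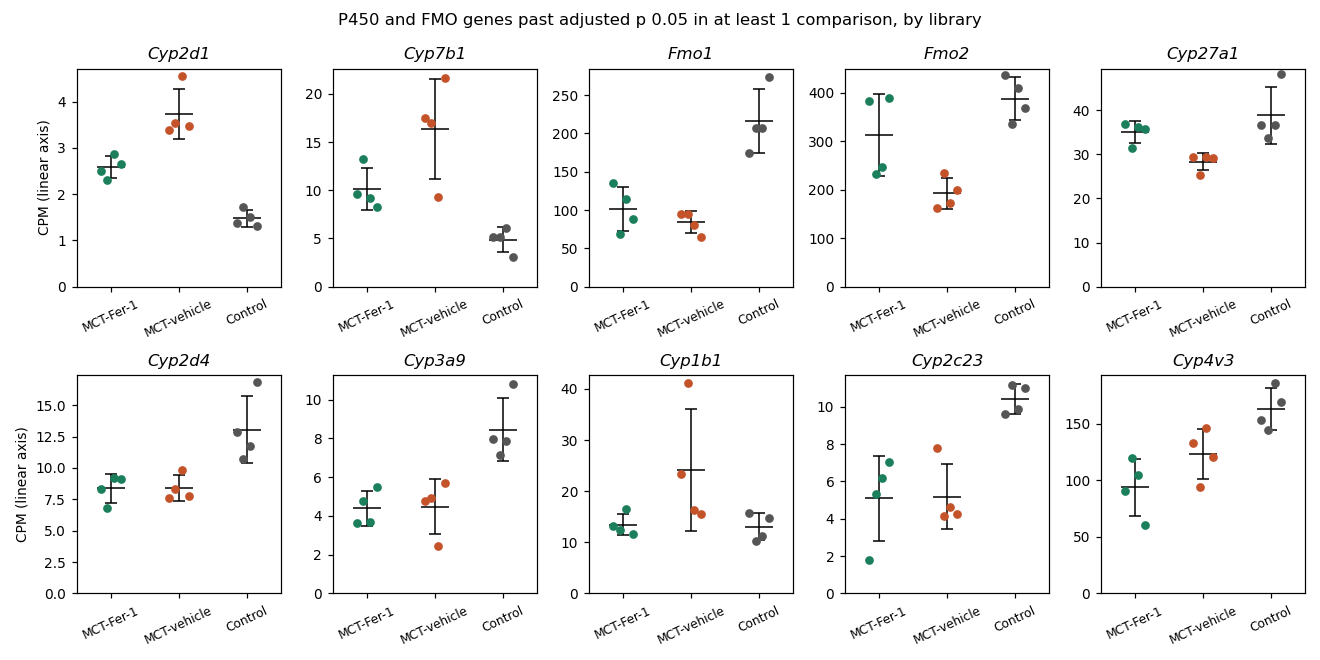
Levels of the 10 members that passed the test in at least 1 comparison (y axis, CPM, linear from 0), 1 point per library, with the mean and SD of 4 libraries as lines. The 3 groups of Cyp2d1 are fully separate, at 2.30 to 2.87 CPM in MCT-Fer-1 lungs, 3.38 to 4.55 CPM in MCT-vehicle lungs and 1.30 to 1.72 CPM in Control lungs, and Cyp1b1 shows 2 MCT-vehicle libraries at 23.5 and 41.1 CPM.

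Cyp2e1 (ENSRNOG00000012458), which oxidises ethanol and small solvents and can generate reactive oxygen, had 38.01, 40.6, 31.6 and 47.5 CPM in MCT-Fer-1 lungs, 21.7, 9.07, 15.8 and 27.3 CPM in MCT-vehicle lungs and 25.01, 17.7, 24.2 and 30.4 CPM in Control lungs. The MCT-Fer-1 libraries lay above all libraries of the other groups, and the MCT-vehicle and Control libraries overlapped. Its log2 fold change of 1.10 ± 0.28 in MCT-Fer-1 against MCT-vehicle lungs did not pass the edgeR test (adjusted p = 0.20003, unadjusted p = 0.00207). MCT-Fer-1 against Control gave 0.70 ± 0.28 (adjusted p = 0.135), and MCT-vehicle against Control gave -0.40 ± 0.28 (adjusted p = 0.363). MCT-Fer-1 against Control passed in 5 of 21 alternatives, among them limma's voom, the fit of the 2 groups alone (adjusted p = 0.0259), leaving out MCT-vehicle 2 (adjusted p = 0.0388) and leaving out both libraries rich in heart-muscle transcripts. Cyp2b1 (ENSRNOG00000033680), a major P450 of rat lung, averaged 589 ± 127 CPM in MCT-Fer-1 lungs, 518 ± 129.6 CPM in MCT-vehicle lungs and 664 ± 79.8 CPM in Control lungs, and its -0.36 ± 0.18 in MCT-vehicle against Control lungs did not pass (adjusted p = 0.197). Cyp2s1, an epithelial form induced through the aryl hydrocarbon receptor, averaged 43.6 ± 7.004 CPM in MCT-Fer-1 lungs, 47.5 ± 17.8 CPM in MCT-vehicle lungs and 48.7 ± 3.52 CPM in Control lungs, with -0.042 ± 0.22 on the log2 scale in MCT-vehicle against Control lungs (adjusted p = 0.918).

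Several xenobiotic P450 genes were set apart by single libraries rather than by group. Cyp1a1 (ENSRNOG00000019500), the classic target of the aryl hydrocarbon receptor, had 2.24, 1.89, 0.756 and 25.8 CPM in MCT-Fer-1 lungs, 5.47, 13.6, 10.1 and 9.93 CPM in MCT-vehicle lungs and 12.4, 26.8, 7.77 and 13.02 CPM in Control lungs. MCT-Fer-1 1, 2 and 3 lay below all other libraries, while MCT-Fer-1 4 was the second highest of all, after Control 2. Over all libraries MCT-Fer-1 against Control gave -0.89 ± 0.89 (edgeR adjusted p = 0.594). Without MCT-Fer-1 4 the difference was -3.27 against Control (adjusted p = 0.00328) and -2.64 against MCT-vehicle (adjusted p = 0.280). MCT-Fer-1 4 was also the deepest library, at 70627239 counts. After all libraries were thinned to the smallest total, MCT-Fer-1 against Control was -0.84 (edgeR adjusted p = 0.646). Thinning leaves the share of a gene in its library about the same, so this value cannot show why MCT-Fer-1 4 stood apart.

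Cyp2b2 (ENSRNOG00000020775), the phenobarbital-inducible neighbour of Cyp2b1 and nearly identical to it, had 2.41, 1.24, 147 and 3.19 CPM in MCT-Fer-1 lungs, 1.97, 1.77, 9.62 and 0.525 CPM in MCT-vehicle lungs and 2.36, 1.77, 1.57 and 1.24 CPM in Control lungs. MCT-Fer-1 3 alone held 3893 counts, the next highest library was MCT-vehicle 3, and all other libraries lay between 0.525 and 3.19 CPM. Its log2 fold change in MCT-Fer-1 against MCT-vehicle lungs was 3.57 ± 1.52 (adjusted p = 0.389), and -0.56 without MCT-Fer-1 3 (adjusted p = 0.848). Cyp2b1 was also highest of its group in MCT-Fer-1 3 and in MCT-vehicle 3, at 748 and 686 CPM. Its highest library of all was Control 4, at 771 CPM, where Cyp2b2 had 1.24 CPM. Reads of this pair may have been assigned to either gene, which was not tested. The 250 bases before each start (RefSeq, GRCr8, plus strand, Cyp2b1 at chr1:90645869-90646118 and Cyp2b2 at chr1:90722031-90722280) show how alike the copies are upstream: of 233 aligned bases 225 were identical, or 96.6%, with 8 differences, and each holds GCGTG once, in capitals. Likeness of their transcripts was not computed.
Cyp2b1: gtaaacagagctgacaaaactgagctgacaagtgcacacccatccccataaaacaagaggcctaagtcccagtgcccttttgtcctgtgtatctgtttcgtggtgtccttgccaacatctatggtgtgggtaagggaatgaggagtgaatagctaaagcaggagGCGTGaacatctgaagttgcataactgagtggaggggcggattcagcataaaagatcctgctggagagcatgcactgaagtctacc
Cyp2b2: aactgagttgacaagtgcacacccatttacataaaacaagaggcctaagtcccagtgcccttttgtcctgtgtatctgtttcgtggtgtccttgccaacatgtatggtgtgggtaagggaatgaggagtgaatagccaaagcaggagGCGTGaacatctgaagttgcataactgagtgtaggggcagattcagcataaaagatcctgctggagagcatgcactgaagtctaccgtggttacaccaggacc

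Cyp2f4 (ENSRNOG00000032805), the naphthalene-oxidising P450 of rat club cells, had 56.4, 34.8, 32.98 and 74.8 CPM in MCT-Fer-1 lungs, 19.01, 188, 71.4 and 22.3 CPM in MCT-vehicle lungs and 57.4, 67.001, 64.7 and 117 CPM in Control lungs. Cyp2a1 (ENSRNOG00000020817), one of a family of close copies that may share reads, had 24.1, 14.1, 18.1 and 45.5 CPM in MCT-Fer-1 lungs, 3.25, 144, 29.4 and 4.94 CPM in MCT-vehicle lungs and 18.6, 22.9, 24.3 and 72.4 CPM in Control lungs. Both genes were highest in MCT-vehicle 2 and Control 4, the 2 libraries rich in heart-muscle transcripts, and lowest in MCT-vehicle 1 and 4. In MCT-vehicle against Control lungs Cyp2f4 had a log2 fold change of -0.027 ± 0.66 (adjusted p = 0.983) and Cyp2a1 one of 0.40 ± 1.02 (adjusted p = 0.823). Without MCT-vehicle 2 these values were -1.05 (adjusted p = 0.195) and -1.52 (adjusted p = 0.257), and without Control 4 they were 0.25 (adjusted p = 0.851) and 1.05 (adjusted p = 0.578). Of 8 club-cell markers 1 was higher and none lower in MCT-vehicle against Control lungs, with sums of 6502 to 10418 CPM in MCT-Fer-1 lungs, 6210 to 10197 CPM in MCT-vehicle lungs and 8538 to 9951 CPM in Control lungs. These sums are mostly Scgb1a1, which alone averaged 7561 CPM, so they say little about the other markers. In MCT-vehicle lungs the SD exceeded the mean for Scgb3a1 (81.8 ± 157 CPM), Bpifa1, Bpifb1, Muc5b and Gabrp. It did not for Scgb1a1, Scgb3a2 and Aldh1a1. The part of airway or heart tissue in these samples was not tested.

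**Figure D4:**
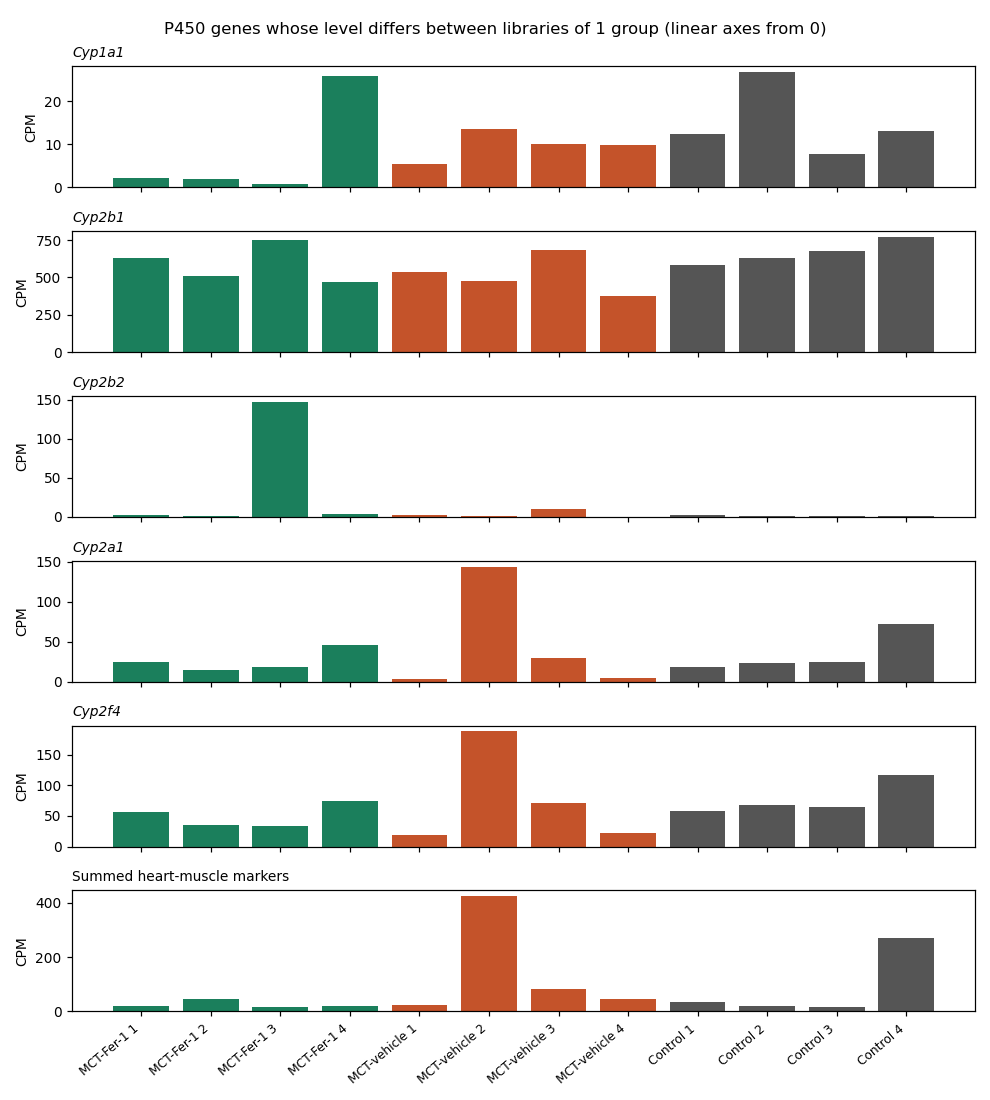
Levels by library (y axes, CPM, linear from 0) of Cyp1a1, Cyp2b1, Cyp2b2, Cyp2a1, Cyp2f4 and the sum of the heart-muscle markers, 1 bar per library. Cyp1a1 stands at 25.8 CPM in MCT-Fer-1 4 alone of its group, Cyp2b2 at 147 CPM in MCT-Fer-1 3, and Cyp2a1, Cyp2f4 and the heart-muscle sum are highest in MCT-vehicle 2 and Control 4.

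Of the 6 sterol, bile acid and steroid P450 genes 1 was higher and 1 lower in MCT-vehicle against Control lungs by edgeR. In that comparison 10.3% of all genes were higher and 8.28% lower. Among the 6 is Cyp21a1, which met the count minimum mainly through the groups where it was higher. Its calls are therefore not read as a result about these genes. DESeq2 called 3 higher (Cyp7b1, Cyp51 and Cyp21a1) and voom also 3 (Cyp7b1, Cyp39a1 and Cyp21a1), each with Cyp27a1 lower, and they called 20.5% and 18.7% of all genes in either direction. Cyp7b1 (ENSRNOG00000009730), which hydroxylates oxysterols and so starts their route to bile acids, had 9.65, 13.3, 9.19 and 8.31 CPM in MCT-Fer-1 lungs, 17.5, 16.97, 9.32 and 21.7 CPM in MCT-vehicle lungs and 5.17, 5.15, 6.08 and 3.02 CPM in Control lungs. All 8 monocrotaline libraries lay above all 4 Control libraries, and MCT-vehicle 3 lay within the MCT-Fer-1 range. The log2 fold change was 1.76 ± 0.27 in MCT-vehicle against Control lungs (edgeR adjusted p = 0.000897) and 1.05 ± 0.27 in MCT-Fer-1 against Control lungs (adjusted p = 0.0243). The second of these was lost without any 1 of MCT-Fer-1 2 and Control 1, 2 or 4 (adjusted p = 0.0504 to 0.0764), and without both libraries rich in heart-muscle transcripts. MCT-Fer-1 against MCT-vehicle gave -0.70 ± 0.26 (unadjusted p = 0.0168, adjusted p = 0.314).

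Cyp27a1 (ENSRNOG00000017188), the mitochondrial sterol hydroxylase that makes the main circulating oxysterol, had 36.9, 31.4, 36.2 and 35.8 CPM in MCT-Fer-1 lungs, 29.4, 25.4, 29.5 and 29.3 CPM in MCT-vehicle lungs and 36.6, 33.8, 36.7 and 48.4 CPM in Control lungs. Every MCT-vehicle library lay below every library of both other groups. The log2 fold change was -0.45 ± 0.11 in MCT-vehicle against Control lungs (edgeR adjusted p = 0.0118), and -0.28 without the 2 libraries rich in heart-muscle transcripts (adjusted p = 0.0589). In MCT-Fer-1 against MCT-vehicle lungs it was 0.31 ± 0.11 (unadjusted p = 0.0147, adjusted p = 0.303). MCT-Fer-1 against Control gave -0.15 ± 0.11 (adjusted p = 0.435). The sums of fibroblast markers were also higher in every MCT-vehicle library than in any MCT-Fer-1 or Control library. These sums are mostly Col3a1 and Col1a1, which averaged 3174 and 802 CPM in MCT-vehicle lungs. By edgeR Col1a1, Col3a1 and Lum were called higher in MCT-vehicle than in Control lungs, and Pdgfra, Dcn, Tcf21 and Pi16 were not called. The sums of macrophage markers, of which Lyz2 alone averaged 24305 CPM, overlapped. C1qa, C1qb and Cd68, 3 of the 6 macrophage markers called higher, were higher in every MCT-vehicle than in every Control library, by 2.04, 1.89 and 1.33 on the log2 scale. Their part in the Cyp7b1, Cyp1b1 and Cyp27a1 values was not tested.

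Cyp51 (ENSRNOG00000007234), which removes a methyl group from lanosterol in cholesterol synthesis, had 71.4, 69.4, 91.5 and 61.5 CPM in MCT-Fer-1 lungs, 86.5, 107, 79.1 and 79.1 CPM in MCT-vehicle lungs and 75.97, 69.3, 60.6 and 64.8 CPM in Control lungs. MCT-vehicle libraries lay above all Control libraries, by 0.38 ± 0.13 on the log2 scale (edgeR adjusted p = 0.0583), and passed in 3 of 21 alternatives, by DESeq2, in the fit of the 2 groups alone and without MCT-Fer-1 3 (adjusted p = 0.0314). Cyp21a1, the steroid hydroxylase of the adrenal cortex, had 0.431, 0.507, 0.681 and 0.657 CPM in MCT-Fer-1 lungs, 0.555, 0.862, 0.522 and 1.103 CPM in MCT-vehicle lungs and 0.5497, 0.166, 0.0602 and 0 CPM in Control lungs. It reached 10 counts in 3 libraries of each monocrotaline group and in 1 Control library, so it met the minimum mainly through the groups where it was higher, and it had at most 47 counts. Its differences did not pass by edgeR with all libraries (adjusted p = 0.165 for MCT-Fer-1 and 0.0592 for MCT-vehicle lungs, each against Control). DESeq2 called it higher in MCT-vehicle lungs, and voom in both monocrotaline groups. Without Control 1, which held 10 counts, edgeR called it in both (adjusted p = 0.0233 and 0.00703), but the other Control libraries held 3, 1 and 0 counts, at or under the floor, so no fold is given. Cyp39a1 and Cyp46a1, which hydroxylate and make brain-derived oxysterols, did not pass by edgeR (0.82 ± 0.31 and -0.48 ± 0.40 in MCT-vehicle against Control lungs, adjusted p = 0.0903 and 0.445), while voom called Cyp39a1 higher in each monocrotaline group against Control.

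None of the 11 fatty acid and eicosanoid P450 genes passed the edgeR test in MCT-vehicle against Control lungs (1 at an unadjusted p of 0.05, which 32.1% of all genes reached, 1 by DESeq2, Cyp4f17, and none by limma's voom), where their median log2 fold change was -0.32 and their range -0.66 to 0.90. Cyp4v3 (ENSRNOG00000042426), a fatty acid hydroxylase, had 90.2, 119.9, 104 and 60.05 CPM in MCT-Fer-1 lungs, 132, 94.3, 146 and 120.5 CPM in MCT-vehicle lungs and 153, 144, 186 and 169 CPM in Control lungs. MCT-Fer-1 libraries lay below all Control libraries, and the MCT-vehicle libraries overlapped both groups. The log2 fold change was -0.80 ± 0.19 in MCT-Fer-1 against Control lungs (edgeR adjusted p = 0.0188), a call lost without Control 3 or without Control 4 (adjusted p = 0.0512 to 0.0551). It was -0.40 ± 0.19 in MCT-Fer-1 against MCT-vehicle lungs (adjusted p = 0.426) and -0.40 ± 0.19 in MCT-vehicle against Control lungs (adjusted p = 0.15998). Cyp4b1 (ENSRNOG00000055078), the lung P450 that activates furan toxins, averaged 347 ± 73.9 CPM in MCT-Fer-1 lungs, 407 ± 123 CPM in MCT-vehicle lungs and 508 ± 70.2 CPM in Control lungs, with -0.55 ± 0.21 on the log2 scale in MCT-Fer-1 against Control lungs (edgeR adjusted p = 0.116), which passed by DESeq2 and in the fit of the 2 groups alone. Cyp2j4, an arachidonic acid epoxygenase, averaged 6.91 ± 1.82 CPM in MCT-Fer-1 lungs, 4.91 ± 0.966 CPM in MCT-vehicle lungs and 6.63 ± 2.87 CPM in Control lungs and passed in no comparison by edgeR, DESeq2 or voom. The 6 Cyp4f members, a family known for hydroxylating leukotriene B4 whose close copies may share reads, did not pass by edgeR either.

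Of the vitamin D and retinoic acid P450 genes, Cyp26b1, which degrades retinoic acid, averaged 49.8 ± 15.5 CPM in MCT-Fer-1 lungs, 54.4 ± 7.802 CPM in MCT-vehicle lungs and 39.1 ± 7.78 CPM in Control lungs. Its MCT-vehicle libraries all lay above the Control libraries, by 0.48 ± 0.22 on the log2 scale, which did not pass the edgeR test (adjusted p = 0.155). Cyp2r1, a vitamin D hydroxylase, had a log2 fold change of 0.025 ± 0.39 in that comparison (adjusted p = 0.973). Cyp20a1, a P450 with no settled substrate, averaged 36.3 ± 1.99 CPM in MCT-Fer-1 lungs, 37.1 ± 1.78 CPM in MCT-vehicle lungs and 32.6 ± 2.81 CPM in Control lungs, the smallest standard error of all members (0.19 ± 0.077 on the log2 scale, adjusted p = 0.111).

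The question of the ferrostatin-1 arm is what the drug changed in monocrotaline rats. In MCT-Fer-1 against MCT-vehicle lungs edgeR called 0 of the 40 tested members and 0% of all genes tested. At an unadjusted p of 0.05, 7 members passed, or 17.5% against 12% of all genes. Fmo2, Cyp2e1, Cyp27a1 and Cyp2b2 were higher, and Cyp1b1, Cyp2d1 and Cyp7b1 lower, in MCT-Fer-1 lungs. Groups did not overlap for 3 members, Cyp27a1 and Cyp2e1 above MCT-vehicle and Cyp2d1 below it, or 7.5% against 6.1% of all genes. DESeq2 called 2 members, Fmo2 (adjusted p = 0.0167) and Cyp2e1 (adjusted p = 0.00891), against 1.5% of all genes, and limma's voom with quality weights called none. This comparison and that of MCT-vehicle with Control share the MCT-vehicle libraries, so the values of a gene in both are not independent.

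In MCT-Fer-1 against Control lungs 6 of the 40 tested members passed the edgeR test, or 15% against 10.8% of all genes. Cyp2d1 and Cyp7b1 were higher, where 6.67% of all genes were, and Fmo1, Cyp4v3, Cyp2d4 and Cyp3a9 were lower, where 4.12% of all genes were. The count was 1 without Control 4 (Fmo1), where 6.34% of all genes were called, and 3 without MCT-Fer-1 2 (Cyp2d1, Fmo1 and Cyp4v3), where 6.35% were. The groups did not overlap for 10 members, 4 higher and 6 lower, or 25% against 19.1% of all genes, and 12 passed at an unadjusted p of 0.05, or 30% against 25.2%. Fmo2, Cyp27a1, Cyp1b1 and Cyp2c23 passed against Control in MCT-vehicle but not in MCT-Fer-1 lungs, and the difference between these effects is the MCT-Fer-1 against MCT-vehicle comparison, in which none of the 4 passed after adjustment by edgeR.

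Among the partners of these enzymes, none of 20 tested genes for electron transfer and haem supply passed in any comparison by edgeR. At an unadjusted p of 0.05, 4 passed in MCT-Fer-1 against Control, 3 in MCT-Fer-1 against MCT-vehicle and 6 in MCT-vehicle against Control lungs, where 25.2%, 12% and 32.1% of all genes did. DESeq2 called Fdx1, a mitochondrial ferredoxin, lower in MCT-Fer-1 and Cyb5r2, a cytochrome b5 reductase, lower in MCT-vehicle lungs, each against Control, and limma's voom called Fdx1 alone. Por, the P450 oxidoreductase, averaged 262 ± 66.3 CPM in MCT-Fer-1 lungs, 232 ± 23.8 CPM in MCT-vehicle lungs and 298 ± 9.64 CPM in Control lungs, with -0.36 ± 0.15 on the log2 scale in MCT-vehicle against Control lungs (edgeR adjusted p = 0.109). Of 5 epoxide hydrolases and P450-fold synthases 2 were higher in MCT-vehicle than in Control lungs and none lower, by edgeR, DESeq2 and voom alike. By edgeR 10.3% of all genes were higher there, and DESeq2 and voom called 20.5% and 18.7% of all genes in either direction. Ephx1, the microsomal epoxide hydrolase that opens epoxides made by P450 enzymes, had 219, 193, 241 and 233 CPM in MCT-Fer-1 lungs, 169, 223, 182 and 180.4 CPM in MCT-vehicle lungs and 127, 111, 99.4 and 126 CPM in Control lungs. All monocrotaline libraries lay above all Control libraries, by 0.70 ± 0.11 in MCT-vehicle lungs (adjusted p = 0.000832) and 0.94 ± 0.11 in MCT-Fer-1 lungs (adjusted p = 0.000176) on the log2 scale. Tbxas1, the thromboxane synthase of platelets and macrophages, was higher by 0.65 ± 0.16 in MCT-vehicle lungs (adjusted p = 0.0137).

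Of 18 tested regulators of these genes 2 were higher and 3 lower in MCT-vehicle than in Control lungs by edgeR, where 18.6% of all genes were called. Vdr, the vitamin D receptor, was higher by 0.54 ± 0.11 (edgeR adjusted p = 0.00649), and Nfe2l2, which switches on antioxidant genes, by 0.29 ± 0.064 (adjusted p = 0.00751). Rxrb, a partner of many nuclear receptors, had -0.33 ± 0.076 (adjusted p = 0.00993), Arnt -0.29 ± 0.078 (adjusted p = 0.0219) and Rarg, a retinoic acid receptor, -0.37 ± 0.11 (adjusted p = 0.03204). In MCT-Fer-1 against Control lungs Vdr was higher (0.39 ± 0.11, adjusted p = 0.0486), and Rxrb (-0.47 ± 0.076, adjusted p = 0.00192) and Nr1h2, an oxysterol receptor (-0.42 ± 0.08, adjusted p = 0.00528), were lower by edgeR. DESeq2 and voom each called 8 regulators there, 3 higher and 5 lower, adding Rara, Rarb, Rarg, Nfe2l2 and Srebf2, and called 14.3% and 15.6% of all genes. No regulator passed in MCT-Fer-1 against MCT-vehicle lungs by edgeR, DESeq2 or limma's voom, and 4 did at an unadjusted p of 0.05, as did 12% of all genes.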

How the data were processed

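The 12 libraries were made from RNA of whole lungs, 4 per group. Values are raw counts of reads for each gene, per the file headers. The authors also deposited a signal column per group, the mean of its 4 libraries, which was not used. The sources used here name no aligner, counter, strand setting or genome build, so overlapping and antisense genes may share reads. Groups and replicate numbers came from the titles.

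Genes were kept by filterByExpr (15257 of 32883, holding 99.9% of counts) and tested with edgeR 4.0.16 in R 4.3.3: TMM scaling, 1 model over 12 libraries with 9 residual degrees of freedom, robust quasi-likelihood test, Benjamini-Hochberg threshold 0.05. The SE of a log2 fold change was derived from the F statistic. DESeq2 1.42.0 and limma 3.58.1 served as alternatives. Members, roles and lists were chosen with earlier results of these data known. Named genes were members past the threshold in any comparison, the 5 with the smallest p for ferrostatin-1, the 10 with the highest mean CPM, and well-known lung members. Fmo4, Fmo6, Cyp21a1, Cyp39a1, Cyp46a1, Cyp20a1, Cyp2r1, Cyp2a1, Cyp2b2 and Cyp2d5 were added after their values were seen. 1 member enters the counts over all members and is not reported here. Of 94 marker symbols 88 were matched. Markers of alveolar type 1, ciliated, smooth-muscle, liver, steroid-making and fat cells gave at most 1 call per comparison and list. No library pair was a duplicate: the smallest chi-square per degree of freedom was 10.7. Promoters came from RefSeq (GRCr8) by symbol, copies were aligned with Biopython 1.88, and coordinates are of that build, not of the files.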

Additional observations from a re-analysis of the deposited data

Results flagged for a closer look

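Of 126 groups of 4 libraries, 1 per member and group, 14 held a library whose distance to the nearest of the other 3 made up most of the group's range (Dixon's test at 95%). Chance gives about 1 in 20 such groups if values are normally distributed, which was not tested for these CPM values. The 14 leave out the member that is not reported, whose groups are among the 126. In MCT-Fer-1 lungs, replicate 4 had 25.8 CPM of Cyp1a1 against 0.756 to 2.24 CPM in the others and 0.629 CPM of Cyp4f37 against 0.184 to 0.259 CPM. For Cyp4f37 the others held 3, 4 and 6 counts, at or near the floor of 3 counts. MCT-Fer-1 3 had 147 CPM of Cyp2b2 against 1.24 to 3.19 CPM, and MCT-Fer-1 2 had 0.553 CPM of Cyp2d5 against 0.224 to 0.265 CPM. Counts of Cyp2d5 were low there, at 12 in MCT-Fer-1 2 and 3, 7 and 16 in the others. In MCT-vehicle lungs, replicate 3 had 9.62 CPM of Cyp2b2 against 0.525 to 1.97 CPM in the others, 4.55 CPM of Cyp2d1 against 3.38 to 3.54 CPM and 0.224 CPM of Cyp4f5 against 0.635 to 0.684 CPM. The Cyp4f5 value of MCT-vehicle 3 came from 3 counts, which is the floor. MCT-vehicle 2 had 25.4 CPM of Cyp27a1 against 29.3 to 29.5 CPM and 2.63 CPM of Cyp2ab1 against 0.683 to 0.855 CPM, and MCT-vehicle 1 had 7.78 CPM of Cyp2c23 against 4.13 to 4.62 CPM. In Control lungs, replicate 4 had 72.4 CPM of Cyp2a1 against 18.6 to 24.3 CPM in the others, 117 CPM of Cyp2f4 against 57.4 to 67.0 CPM and 11.8 CPM of Cyp2t1 against 8.67 to 9.02 CPM, and Control 2 had 19.5 CPM of Cyp4f6 against 15.8 to 16.1 CPM.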

How the results depend on the processing

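With 9 members called in MCT-vehicle against Control lungs, 0 in MCT-Fer-1 against MCT-vehicle lungs and 6 in MCT-Fer-1 against Control lungs, the alternatives gave 5 to 13, 0 to 2 and 3 to 10. Leaving out 1 library at a time gave 6 to 9, 0 to 0 and 1 to 8, while 13.1 to 18.5%, 0 to 0.265% and 6.34 to 11.1% of all genes were called. Counts moved by over 1.5 times with DESeq2 (2 in MCT-Fer-1 against MCT-vehicle) and with limma's voom (10 in MCT-Fer-1 against Control). They also did so without both MCT-vehicle 2 and Control 4 (5 for MCT-vehicle and 3 for MCT-Fer-1 lungs, each against Control). In MCT-Fer-1 against Control lungs the count moved as much without Control 4 alone (1) and without MCT-Fer-1 2 (3). The cause was not tested. The same replicate numbers occur in all groups, and the labels do not say that they pair libraries. Same-numbered deviations correlated at -0.0926 to 0.133, with 2 of 12 pairs over 0.1. Differently numbered pairs were not computed for comparison, so pairing is not settled by these values. With the replicate number as a block the counts were 8, 0 and 7, with Cyp26b1 called in MCT-vehicle (adjusted p = 0.0162) and Cyp2e1 in MCT-Fer-1 lungs, each against Control. Of 1570 values of named members under alternatives 1437 kept direction and call, 52 lost and 28 gained a call, and 53 changed direction, 0 of them called either way. Calls of Fmo1, Fmo2, Cyp7b1 and Cyp2d1 in MCT-vehicle against Control lungs, and of Fmo1 for MCT-Fer-1 against Control lungs, held in all 21 alternatives. The changes of direction, as log2 fold changes, were as follows. In MCT-Fer-1 against MCT-vehicle lungs Cyp2c23 gave 0.0091 with library totals, 0.014 without a filter and 0.12 with voom. Voom gave 0.82 for Cyp2a1, 0.011 for Cyp2f4 and 0.080 for Cyp3a9. Without MCT-vehicle 2 and Control 4 the values were 1.09 for Cyp2a1, 0.43 for Cyp2f4, 0.0039 for Cyp2s1 and 0.028 for Cyp3a9. Cyp2d4 gave -0.013 with the block and -0.066 after thinning to the smallest library. In MCT-vehicle against Control lungs Cyp2a1 gave -1.03 with voom, -0.12 with the block and -0.86 without those 2 libraries. In MCT-Fer-1 against Control lungs Cyp2a1 gave 0.23 without them, and Cyp1b1 -0.030 after thinning. Leaving out 1 library, the values ran in MCT-Fer-1 against MCT-vehicle lungs from -2.64 to 0.10 for Cyp1a1, -0.19 to 0.27 for Cyp2c23, -0.22 to 0.11 for Cyp3a9, -0.23 to 0.026 for Fmo4, -0.28 to 0.052 for Cyp26b1, -0.56 to 4.74 for Cyp2b2, -0.045 to 0.094 for Cyp2d4, -1.28 to 1.09 for Cyp2a1, -0.92 to 0.43 for Cyp2f4 and -0.26 to 0.092 for Cyp2s1. In MCT-vehicle against Control lungs they ran from -1.05 to 0.30 for Cyp2f4, -0.25 to 0.10 for Cyp2s1, -1.52 to 1.05 for Cyp2a1 and -0.27 to 1.26 for Cyp2b2. In MCT-Fer-1 against Control lungs they ran from -0.13 to 0.40 for Cyp2j4, -0.0078 to 0.19 for Cyp51, -0.071 to 0.15 for Cyp1b1 and -0.89 to 0.23 for Cyp2a1. Depth limits the lowest members: Cyp2d5, Cyp26a1, Cyp4f37 and Cyp21a1 had 0 to 1 count in their lowest library, and Cyp4f5 had 3.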
